A study of Mus musculus with 3 samples.

Results

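The genes described here are 10 that encode proteins of the contractile actin cytoskeleton, out of 32285 genes in the deposited tables: Acta2, Myl9, Tpm1, Tpm2, Tpm4, Cald1, Cnn1, Tagln, Tagln2 and Actn1. They were picked by symbol, and the choice was made with their levels in these libraries already known, so the levels below are descriptions and carry no p-value. Their transcripts were measured by single-cell RNA-seq in mouse blastoids, which are stem cell aggregates modelled on the early embryo. They were made from the E14 embryonic stem cell line, kept in serum and LIF with 10 µM T0901317, an agonist of the liver X receptors, and named NrESC by the submitters. The first day's medium held 2 µM Y-27632 beside rhFGF4 at 12.5 ng/mL, heparin at 0.5 µg/mL and CHIR99021 at 3 µM. Y-27632 is a kinase inhibitor that relaxes actomyosin contraction. From the second day Y-27632 was gone, and BMP4 at 5 ng/mL and A83-01 at 0.5 µM, an inhibitor of TGF-beta type I receptors, had been added. Structures chosen manually at day 5 gave 3 libraries, named Type I, Type II and Type III after their titles, and these treatments were the same for all 3. The sources used here do not say what separates the types, and every library came from 1 parental line.

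Actin filaments carry tropomyosin along their length, and tropomyosin together with caldesmon and calponin sets how myosin engages the filament. Alpha-actinin crosslinks filaments, and the transgelins are small calponin-like proteins that bind and bundle them. Several of these genes, Acta2, Tagln, Cnn1 and Myl9 among them, are best known as smooth muscle genes and as targets of serum response factor, while Tagln2, Tpm4 and Actn1 are used by many nonmuscle cells. In the mouse blastocyst the trophectoderm is a contractile epithelium that encloses the cavity.

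Cell barcodes with at least 10000 UMIs (unique molecular identifiers, each 1 captured transcript) and at most 20% mitochondrial UMIs were kept, which left 1405 of 6813 barcodes in Type I, 1992 of 9265 in Type II and 272 of 2310 in Type III. These barcodes held 82.2% to 86.9% of each library's UMIs, and their median depth was 41491 to 71540 UMIs. Each barcode was put in a state by the CPM (the UMIs of a gene relative to all UMIs of the same cells, on the customary CPM scale) of gate genes that are not among the 10: visceral endoderm at 1000 CPM or more of Ttr, Rbp4, Apoa1 and Apoa2, otherwise early primitive endoderm (early PrE) at 100 CPM or more of Gata6, Sox17 and Gata4, otherwise trophectoderm (TE) at 800 CPM or more of Krt8, Krt18 and Krt19, and otherwise epiblast at 150 CPM or more of Pou5f1. The TE gate held 208, 278 and 72 cells in Types I, II and III, the visceral endoderm gate 443, 563 and 19, the early PrE gate 271, 376 and 45, and the epiblast gate 351, 582 and 121. Type III therefore had 19 visceral endoderm cells, which makes its values there the least precise. Of 272 kept Type III barcodes, 161 had a sequence that was also present in another library (157 of them a barcode that was not kept in Type I, with a median of 1549 UMIs there), against 58 of 1405 in Type I and 26 of 1992 in Type II. Calls and TE differences between types are given with and without them below.

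The gates matched their labels in part. Beyond the gate keratins, the TE cells had 241 to 329 CPM of Gata2 and 39.1 to 41.1 CPM of Gata3, while the epiblast had 3.56 to 5.52 CPM of Gata2 and 2.70 to 3.37 CPM of Gata3. Cdx2, a factor of early trophectoderm, reached 4.82 to 12.5 CPM in TE and Elf5, a trophoblast stem cell factor, at most 1.01 CPM. Of the visceral endoderm cells, 380 of 443, 494 of 563 and 18 of 19 also met the keratin gate, as did 140 of 271, 182 of 376 and 15 of 45 early PrE cells, so keratin level alone does not separate TE from endoderm here. The early PrE gate of Type III also held transcripts of other cells, with 261 CPM of Gm21761, from a list of 2-cell-like genes, and 15.1 CPM of the endothelial gene Cdh5.

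TE stood highest in every library for 9 of the 10 genes, and for Myl9 in Types II and III. Tpm1, Cald1 and Tagln were several-fold higher in the TE sums than in each of the other states, in all 3 libraries. TE cells were not alike in these genes, as the subgroups below show. Tagln2, Tpm4 and Actn1 were lowest in the epiblast and were closer together in TE, visceral endoderm and early PrE. Tpm2 was high in TE, intermediate in the epiblast and lowest in visceral endoderm. A gene was called higher or lower where the log2 ratio of CPM + 5 reached 1 (2-fold) in the same direction in all 3 libraries, among 9200 genes with a mean of at least 5 CPM over the 12 state sums (4 states in 3 libraries). Of the 10 genes 7 were in that set. Myl9, Acta2 and Cnn1 were below the minimum, and Tagln passed it through TE alone, with means of 3.27, 3.73 and 1.48 CPM in visceral endoderm, early PrE and epiblast, so it had to differ. In TE over epiblast 6 of the 7 were called higher and 0 lower, where 5.96% of all genes were called higher and 1.35% lower. Without Tagln that is 5 of 6, and the counts describe the genes that passed, which were chosen with these levels known.

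**Figure D1:**
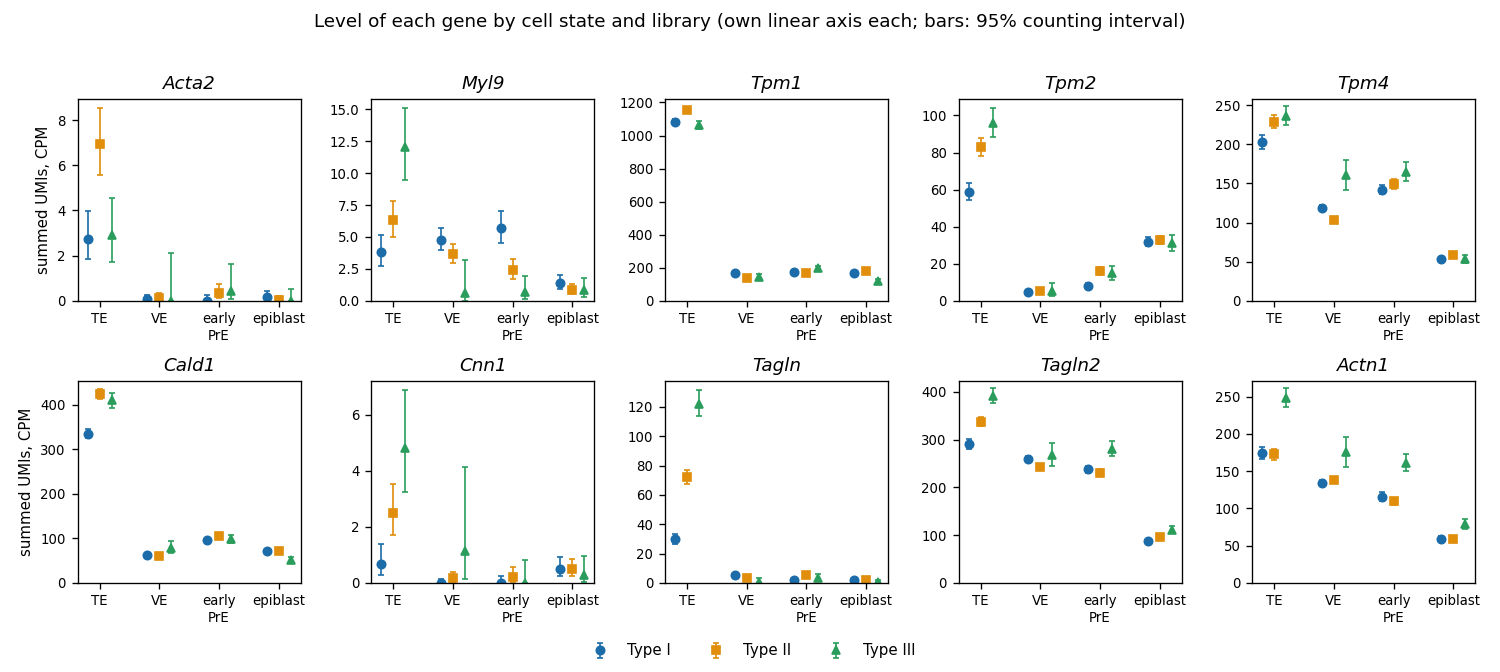
Level of each of the 10 genes in CPM (vertical axis, linear, its own range in each panel) in TE, visceral endoderm (VE), early PrE and epiblast (horizontal axis), with 1 point per library and its exact 95% Poisson interval from the summed UMIs. Tpm1 lies between 1064 and 1152 CPM in the 3 TE sums and between 120.2 and 197 CPM in the other 9 sums, and Tpm2 is higher in the epiblast than in either endoderm state.

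The tropomyosins did not behave alike. Tpm1 (ENSMUSG00000032366, chr9:67022590-67049406, minus strand, GRCm38), which gives rise to muscle and nonmuscle tropomyosins, had 1083, 1152 and 1064 CPM in TE (Types I, II and III, in that order here and below). It had 165, 139 and 143 CPM in visceral endoderm, 173, 167 and 197 CPM in early PrE and 170.4, 179 and 120.2 CPM in the epiblast. Every TE value was above every value of the other states, and the other 3 states overlapped. The mean log2 ratio was 2.79 ± 0.26 for TE over epiblast and 2.84 ± 0.17 for TE over visceral endoderm (SD, n = 3 libraries).

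Tpm4 (ENSMUSG00000031799, chr8:72134975-72153142, plus strand) encodes a nonmuscle tropomyosin found on stress fibres. It had 203, 229 and 236 CPM in TE, 119, 104 and 160.2 CPM in visceral endoderm, 142, 149 and 165 CPM in early PrE and 53.0, 58.1 and 53.0 CPM in the epiblast. TE did not overlap early PrE, early PrE and visceral endoderm overlapped, and the epiblast lay below all of them. The mean log2 ratio was 1.93 ± 0.11 for TE over epiblast and 1.39 ± 0.14 for early PrE over epiblast.

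Tpm2 (ENSMUSG00000028464, chr4:43514711-43523765, minus strand), whose product is called beta-tropomyosin in muscle, kept a different order. It had 58.9, 82.8 and 96.0 CPM in TE, 4.65, 5.21 and 5.15 CPM in visceral endoderm, 7.95, 15.8 and 14.7 CPM in early PrE and 31.9, 32.8 and 31.0 CPM in the epiblast. No 2 neighbouring states in the order TE, epiblast, early PrE and visceral endoderm overlapped, and each library kept that order. Tpm2 was the 1 gene of the 7 that missed the 2-fold call in TE over epiblast, with log2 ratios of 0.79 in Type I and a mean of 1.17, and it was called when Type I was left out. In visceral endoderm over epiblast its mean log2 ratio was -1.88 ± 0.06, opposite in sign to Tagln2 and Actn1.

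Cald1 and Tpm1 had like patterns. Cald1 (ENSMUSG00000029761, chr6:34598500-34775473, plus strand) encodes caldesmon, which binds tropomyosin, actin and myosin and restrains the motor. It had 335, 423 and 409.7 CPM in TE, 61.7, 60.1 and 79.0 CPM in visceral endoderm, 95.8, 106 and 98.6 CPM in early PrE and 71.8, 70.8 and 52.2 CPM in the epiblast. TE stood above all other values and early PrE did not overlap visceral endoderm, whereas visceral endoderm overlapped the epiblast. The mean log2 ratio for TE over epiblast was 2.50 ± 0.35.

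Tagln (ENSMUSG00000032085, chr9:45929619-45936058, minus strand), the smooth muscle transgelin also called SM22-alpha, had 29.7, 72.2 and 122 CPM in TE. It had 5.67, 3.57 and 0.572 CPM in visceral endoderm, 2.17, 5.45 and 3.56 CPM in early PrE and 1.88, 1.76 and 0.808 CPM in the epiblast. The states other than TE overlapped and were low, and the TE values differed most between libraries. The mean log2 ratio for TE over epiblast was 3.43 ± 1.06, and it depends on the pseudocount, being 4.74 with 1 CPM added. Tagln, Tpm4, Actn1 and Cald1 overlap other measured genes on the opposite strand (Pcsk7 for Tagln, Npn2 for Cald1), and the sources used here do not say whether strand was used in the counting.

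Tagln2 (ENSMUSG00000026547, chr1:172500047-172507380, plus strand), the transgelin of nonmuscle cells, had 290.3, 338 and 391 CPM in TE, 259, 242 and 268 CPM in visceral endoderm, 238, 231 and 281 CPM in early PrE and 87.4, 96.3 and 111 CPM in the epiblast. TE did not overlap visceral endoderm, although the mean log2 ratio between them was 0.39 ± 0.20, and the epiblast lay below every other value. Actn1 (ENSMUSG00000015143, chr12:80167547-80260371, minus strand), the nonmuscle alpha-actinin of stress fibres and adhesions, had 174, 172 and 248 CPM in TE, 134, 138 and 175 CPM in visceral endoderm, 116, 109 and 161 CPM in early PrE and 59.3, 58.2 and 78.5 CPM in the epiblast. Here TE and visceral endoderm overlapped across libraries, though TE was higher within each one. The mean log2 ratios for TE over epiblast were 1.74 ± 0.05 for Tagln2 and 1.52 ± 0.07 for Actn1.

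Acta2, Cnn1 and Myl9 were scarce in every state. Acta2 (ENSMUSG00000035783, chr19:34241090-34255590, minus strand), which encodes smooth muscle alpha-actin, had 29, 89 and 18 UMIs in the TE sums, which is 2.76, 6.94 and 2.89 CPM, and at most 5 UMIs in any sum of the other states. Its TE values did not overlap those of any other state. Cnn1 (ENSMUSG00000001349, chr9:22099216-22109630, plus strand), which encodes the smooth muscle calponin, had 0.665, 2.49 and 4.82 CPM in TE, 0, 0.157 and 1.14 CPM in visceral endoderm, 0, 0.192 and 0 CPM in early PrE and 0.509, 0.488 and 0.269 CPM in the epiblast. Myl9 (ENSMUSG00000067818, chr2:156775420-156781658, plus strand), a regulatory light chain of smooth muscle and nonmuscle myosin II, had 3.80, 6.31 and 12.04 CPM in TE, 4.80, 3.65 and 0.572 CPM in visceral endoderm, 5.71, 2.37 and 0.668 CPM in early PrE and 1.37, 0.863 and 0.808 CPM in the epiblast. For Myl9 and Cnn1 the TE range overlapped that of visceral endoderm. No window of 50 bases in the last 500 bases of the annotated transcripts of any of the 10 genes was shared with another gene.

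The promoters of 4 genes are shown because Tpm1 and Cald1 moved together across the states while Acta2 and Myl9 stayed low. Each line is the 250 bases before the RefSeq start on the gene's own strand (GRCm38.p6), and the promoter table held 9 of the 10 genes, all but Tagln. Capitals mark a CArG box, the site of serum response factor, or a CArG-like element with 1 core base other than A or T, or CATTCC on either strand, a core bound by TEAD factors. The CArG motifs read the same class on both strands, and no marked matches overlap. The lines are Tpm1 at chr9:67049214-67049463 on the minus strand, the first start of Cald1 at chr6:34598254-34598503 on the plus strand, Acta2 at chr19:34255374-34255623 on the minus strand and Myl9 at chr2:156775214-156775463 on the plus strand.
Tpm1: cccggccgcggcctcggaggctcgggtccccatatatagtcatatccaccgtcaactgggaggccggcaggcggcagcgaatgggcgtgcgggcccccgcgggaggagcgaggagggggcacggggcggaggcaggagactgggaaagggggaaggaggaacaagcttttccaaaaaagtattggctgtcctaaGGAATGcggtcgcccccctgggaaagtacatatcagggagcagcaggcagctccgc
Cald1: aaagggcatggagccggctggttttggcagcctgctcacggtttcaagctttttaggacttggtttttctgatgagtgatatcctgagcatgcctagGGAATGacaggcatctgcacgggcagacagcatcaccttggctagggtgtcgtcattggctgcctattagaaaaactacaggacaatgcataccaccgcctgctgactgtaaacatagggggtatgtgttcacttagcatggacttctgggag
Acta2: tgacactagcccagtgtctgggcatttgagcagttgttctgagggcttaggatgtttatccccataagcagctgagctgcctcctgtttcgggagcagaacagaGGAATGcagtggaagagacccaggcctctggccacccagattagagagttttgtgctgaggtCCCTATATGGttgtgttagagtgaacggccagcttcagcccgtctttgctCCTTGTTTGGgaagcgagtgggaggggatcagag
Myl9: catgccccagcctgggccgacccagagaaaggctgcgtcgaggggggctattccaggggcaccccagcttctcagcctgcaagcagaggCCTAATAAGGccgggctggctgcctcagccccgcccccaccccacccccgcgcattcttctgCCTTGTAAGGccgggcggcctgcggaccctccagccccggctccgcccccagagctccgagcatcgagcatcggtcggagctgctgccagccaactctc
A CArG box stood in 1.47% of 32851 promoters of that length and, among the 9 genes, in that of Myl9. The CArG-like element stood in 7.24% of promoters and in those of Acta2 and Myl9. CATTCC stood in 12.6% of promoters and in 4 of the 10 promoters of the 9 genes, those of Tpm1, Acta2 and Tagln2 and the first of Cald1. The promoter at the second start of Cald1 held none of these motifs. A missing match says only that these letters are absent from the window.

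Compared with visceral endoderm, TE held 4 of the 7 genes at least 2-fold higher (Tagln, Tpm1, Tpm2 and Cald1) and 0 lower, where 4.51% of all genes were called higher and 7.20% lower. Tagln passed the minimum through TE alone, so it had to differ here too. In visceral endoderm over epiblast 2 were called higher (Tagln2 and Actn1) and 1 lower (Tpm2), where 13.7% of all genes were called higher and 4.55% lower. In early PrE over epiblast 2 were called higher (Tagln2 and Tpm4) and 0 lower, where 10.6% of all genes were called higher and 3.10% lower. In visceral endoderm over early PrE 0 of the 7 were called, where 0.674% of all genes were called higher and 0.315% lower. These comparisons share the epiblast or TE sums and are not separate evidence for one another. A second rule asked for an adjusted p of at most 0.05 in edgeR's quasi-likelihood fit with library as a block, and for no fold. It called 7 of the 7 higher in TE over epiblast, where it called 30.2% of all genes higher and 34.9% lower. It called 7 higher in TE over visceral endoderm, where it called 34.7% of all genes higher and 36.4% lower. In visceral endoderm over epiblast it called 4 higher and 2 lower, where it called 40.7% of all genes higher and 39.3% lower. In early PrE over epiblast it called 4 higher and 1 lower, where it called 38.6% of all genes higher and 37.1% lower. In visceral endoderm over early PrE it called 1 higher and 3 lower, where it called 14.2% of all genes higher and 13.5% lower.

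**Figure D2:**
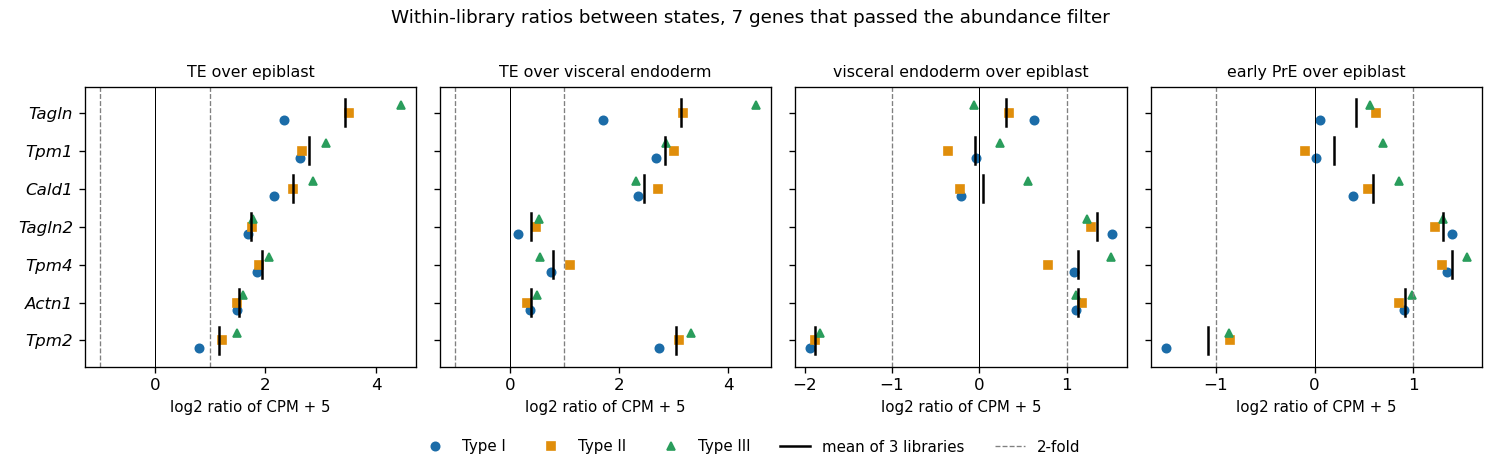
Log2 ratio of CPM + 5 (horizontal axis) for the 7 genes in 4 comparisons of states, with 1 point per library and the mean of the 3 libraries as a black bar; dashed lines mark 2-fold. Tpm2 lies left of 0 in visceral endoderm over epiblast, at a mean of -1.88, and right of 0 in TE over visceral endoderm.

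The calls in TE over epiblast rest on scaling to total UMIs, under which the median of all genes was 0.25. With TMM factors that median was -0.02, and over all genes 305 were called higher and 228 lower, in place of 548 higher and 124 lower. The same 6 genes were called higher there and with the size factors of DESeq2, with mean log2 ratios of 1.17 or more. Those size factors called 2.98% of all genes higher and 2.29% lower. For visceral endoderm over epiblast TMM gave 1012 genes higher and 583 lower, in place of 1259 and 419, and Actn1 lost its call at a mean of 0.92. For early PrE over epiblast it gave 759 and 401, in place of 971 and 285, and Tpm2 was then called lower. With the size factors of DESeq2 both Tagln2 and Actn1 lost their calls in visceral endoderm over epiblast, and in early PrE over epiblast Tagln2 lost its call, at a mean of 1.06, and Tpm2 was called lower. Over all genes that setting called 9.77% higher and 6.12% lower in the former comparison, and 7.26% and 4.16% in the latter. With state limits doubled Tagln2 lost its call in both of these comparisons, and Tpm2 was called lower in early PrE over epiblast, as it was with 1 CPM added. Doubled limits called 14.1% of all genes higher and 4.71% lower in visceral endoderm over epiblast, and 12.1% and 3.58% in early PrE over epiblast. Leaving out cells that met more than 1 gate kept the 6 calls in TE over epiblast, where 6.29% of all genes were called higher and 1.55% lower. It left 7, 5 and 1 visceral endoderm cells and 90, 140 and 15 early PrE cells, and the calls of Tagln2, Actn1 and Tpm4 over epiblast in those states were lost. There 5.84% of all genes were called higher in visceral endoderm over epiblast and 10.2% in early PrE over epiblast, with 4.18% and 3.72% lower. Leaving out barcodes shared between libraries, which left 25 TE and 5 visceral endoderm cells in Type III, kept the 6 calls in TE over epiblast and left Tagln and Tpm1 called in TE over visceral endoderm, so Tpm2 and Cald1 lost theirs, at mean log2 ratios of 2.10 and 1.97. For visceral endoderm over epiblast it left Actn1 called, and Tagln2 and Tpm2 lost their calls. In early PrE over epiblast it left Tpm4 called, and Tagln2 lost its call at a mean of 1.04. Over all genes unshared barcodes gave 5.48% higher and 1.38% lower in TE over epiblast, and 3.47% and 6.76% in TE over visceral endoderm. They gave 12.7% and 3.74% in visceral endoderm over epiblast, and 7.70% and 2.41% in early PrE over epiblast.

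The markers of later mesoderm, smooth muscle and fibroblast, and the early response genes, were also highest in TE in every library. So were the TE markers, which include the gate keratins. No other marker list was highest in TE in every library. The 12 markers of later mesoderm, smooth muscle and fibroblast summed to 62.1 to 83.3 CPM in TE, 8.43 to 19.5 CPM in visceral endoderm, 19.5 to 23.8 CPM in early PrE and 19.6 to 25.2 CPM in the epiblast, led by Hand1, which trophoblast also uses, at 30.8 to 43.4 CPM in TE. Desmin (Des), an intermediate filament of muscle, had 21.5 to 30.4 CPM in TE and 16.2 to 20.2 CPM in the epiblast. Myh11, the smooth muscle myosin heavy chain, had at most 0.285 CPM in TE, and Col1a1 and Col3a1 at most 0.803 CPM. The 7 early response genes, which cell dissociation can induce, summed to 505 to 606 CPM in TE, 326 to 411 CPM in visceral endoderm, 307 to 322 CPM in early PrE and 274 to 305 CPM in the epiblast. The 6 markers of parietal endoderm did not follow the 10 genes, at 467 to 577 CPM in TE, 6236 to 6489 CPM in visceral endoderm, 6982 to 8620 CPM in early PrE and 84.4 to 145 CPM in the epiblast. Markers of endothelium and blood summed to 2.88 to 7.41 CPM in TE and 11.2 to 14.0 CPM in the epiblast. Those of streak mesoderm summed to 5.14 to 44.0 CPM in TE and 32.3 to 34.0 CPM in the epiblast. The part of these transcripts in the levels of the 10 genes was not tested.

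Shares of cells were compared after every cell was thinned to 10000 UMIs. At that depth Tpm1 had a UMI in 91.8%, 95.3% and 94.4% of TE cells, against 63.8%, 60.8% and 55.4% of the epiblast cells. Cald1 had one in 77.9%, 82.4% and 83.3% of TE cells and 43.9%, 43.6% and 31.4% of epiblast cells. The exact 95% binomial intervals of TE and epiblast did not overlap for either gene in any library.

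Tagln was found in a minority of TE cells, 15.9% (33 of 208), 19.1% (53 of 278) and 26.4% (19 of 72), with intervals of 11.2% to 21.6%, 14.6% to 24.2% and 16.7% to 38.1%. In the epiblast, taken as the state that lacks it, 1.71%, 1.72% and 2.48% of cells had a UMI. Before thinning, at median depths of 41852 to 81527 UMIs in TE and 46588 to 59991 UMIs in the epiblast, the shares were 27.4%, 38.8% and 45.8% in TE and 4.56%, 5.33% and 4.96% in the epiblast. Within TE the 10% of cells with most Tagln held 73.8%, 77.3% and 74.0% of its UMIs, and the median cell had none. For Tpm1 the top 10% of cells held 35.7%, 36.7% and 31.8%, and the median TE cell had 796, 749 and 701 CPM. The Tagln UMIs of TE thus lay in fewer cells than those of Tpm1, a far more abundant transcript. Tpm2, nearer to Tagln in level at 58.9, 82.8 and 96.0 CPM in TE, had 45.5%, 39.6% and 43.0% in its top 10% of cells. The part of abundance in these shares was not tested.

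Tpm2 had a UMI in 31.2%, 46.8% and 47.2% of TE cells, 3.61%, 5.33% and 5.26% of visceral endoderm cells and 27.4%, 25.4% and 28.1% of epiblast cells. In Type I the TE and epiblast intervals overlapped. Tagln2 had a UMI in 83.7%, 84.5% and 84.7% of TE cells and in 55.8%, 55.8% and 71.1% of epiblast cells. Acta2 was found in 2 of 208, 7 of 278 and 2 of 72 thinned TE cells. It was found in 0 of 351, 0 of 582 and 0 of 121 thinned epiblast cells, which allows shares of cells with a UMI of up to 0.855%, 0.515% and 2.48% by 3 counts of the total. The exact intervals of TE and epiblast overlapped in Types I and III, so the difference was not detectable by share there at this depth. Before thinning the shares were 2.88%, 5.04% and 8.33% in TE and 0.570%, 0.172% and 0% in the epiblast. All these intervals and limits cover counting error only.

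**Figure D3:**
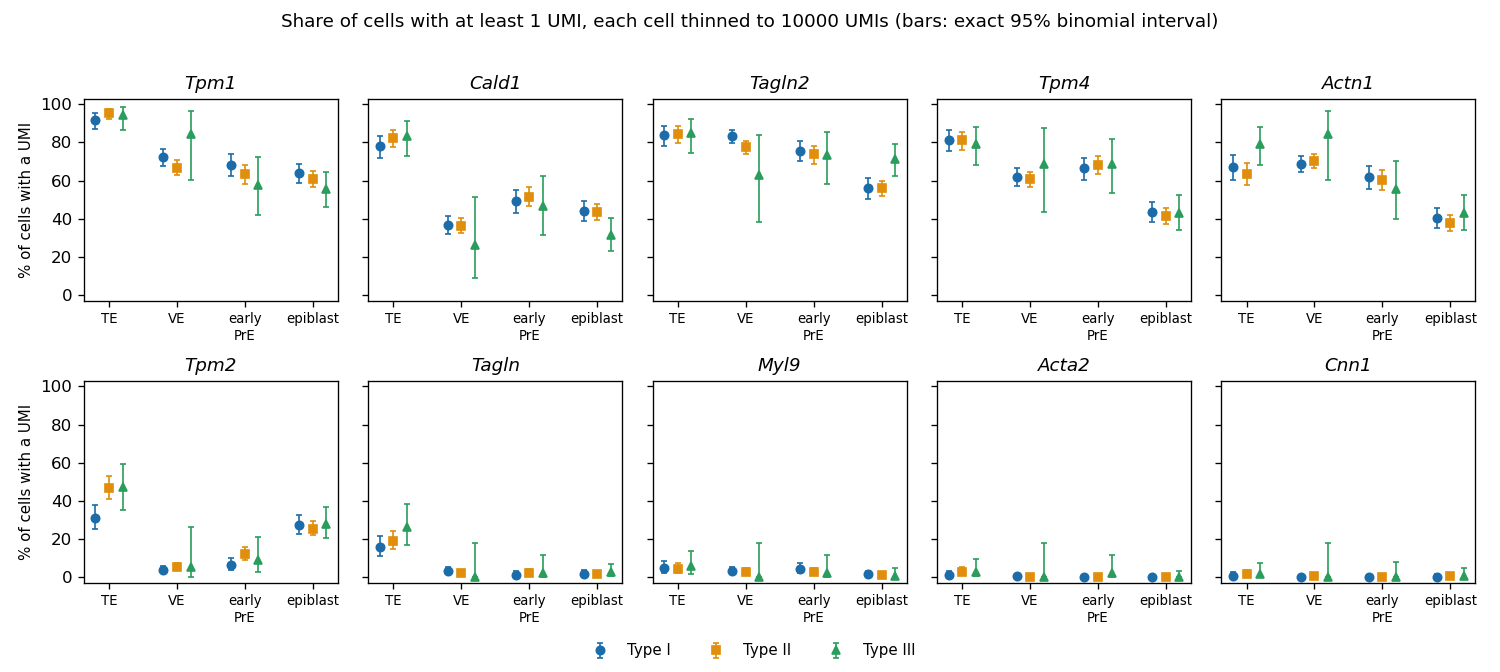
Percent of cells with at least 1 UMI (vertical axis, 0 to 100) in TE, visceral endoderm (VE), early PrE and epiblast (horizontal axis) after thinning each cell to 10000 UMIs, with 1 point per library and its exact 95% binomial interval. Tagln has a UMI in 15.9% to 26.4% of TE cells, while Tpm1 has one in 91.8% to 95.3%.

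Within TE the genes varied together from cell to cell. Over the 21 pairs of the 7 genes, the median Spearman correlation across thinned TE cells was 0.26 in Type I (208 cells), 0.22 in Type II (278 cells) and 0.29 in Type III (72 cells), with all 21 pairs above 0 in each library. The highest pair in each was Tpm1 with Cald1, at 0.49, 0.55 and 0.49. In visceral endoderm and early PrE of Types I and II, and in the epiblast of all 3 libraries, the medians lay between 0.04 and 0.08. Cells of 1 library share its preparation, and low counts hold such correlations down, so they are given as descriptions.

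The TE cells were divided by Sfn (stratifin, an epithelial 14-3-3 protein) and by the sum of the homeobox genes Rhox6 and Rhox9, each at 100 CPM, which sets 2 kinds of TE cell side by side. Cells high in Sfn alone numbered 36, 88 and 27 in Types I, II and III, and cells high in Rhox6 and Rhox9 alone numbered 46, 58 and 15. Only Types I and II had at least 20 of each, and there 3 of the 7 genes were at least 2-fold higher in Sfn-high cells in both libraries (Tagln, Tpm1 and Cald1) and 0 lower, where 2.22% of all genes were called higher and 2.76% lower. In Type I alone 4.29% of all genes passed 2-fold upward and 4.50% downward, and in Type II alone 3.30% and 5.23%.

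Tagln had 67.9 and 141 CPM in the Sfn-high cells of Types I and II, against 1.34 and 7.30 CPM in the Rhox-high cells. The Rhox-high value of Type I was below visceral endoderm (5.67 CPM), early PrE (2.17 CPM) and epiblast (1.88 CPM) of that library. That of Type II was above them, at 3.57, 5.45 and 1.76 CPM in the same order. Rhox-high TE cells of these libraries thus had little of the Tagln excess seen in the TE sums. Tpm1 had 1759 and 1752 CPM in Sfn-high cells, against 348 and 449.5 CPM in Rhox-high cells. Cald1 had 442 and 581 CPM in Sfn-high cells, against 189 and 197 CPM in Rhox-high cells. In each case both Sfn-high values lay above both Rhox-high values. In Type III, with 15 Rhox-high cells, the order was the same, with 198 CPM of Tagln in Sfn-high cells and 17.5 CPM in Rhox-high cells.

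Tpm2 had log2 ratios of 1.76 and 0.99 for Sfn-high over Rhox-high cells and Acta2 had no UMI in the Rhox-high cells of any library, against 10.1, 8.70 and 4.07 CPM in the Sfn-high cells. Tpm4 did not follow, at 194 and 235 CPM in Sfn-high cells and 207 and 289 CPM in Rhox-high cells of Types I and II. Sfn-high cells were also deeper, with median counts of 63207 and 46372 UMIs, against 47924 and 36016 UMIs in Rhox-high cells. Gata2 was lower in them, at 22.2 and 67.1 CPM, against 736 and 827 CPM in Rhox-high cells. Early response transcripts moved less evenly, Fos having 83.4 and 87.0 CPM in Sfn-high cells and 45.1 and 66.5 CPM in Rhox-high cells of Types I and II. In Type III Fos ran the other way, at 127 CPM in Sfn-high cells and 221 CPM in the 15 Rhox-high cells. The part of depth and of early response genes in the ratios was not tested.

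**Figure D4:**
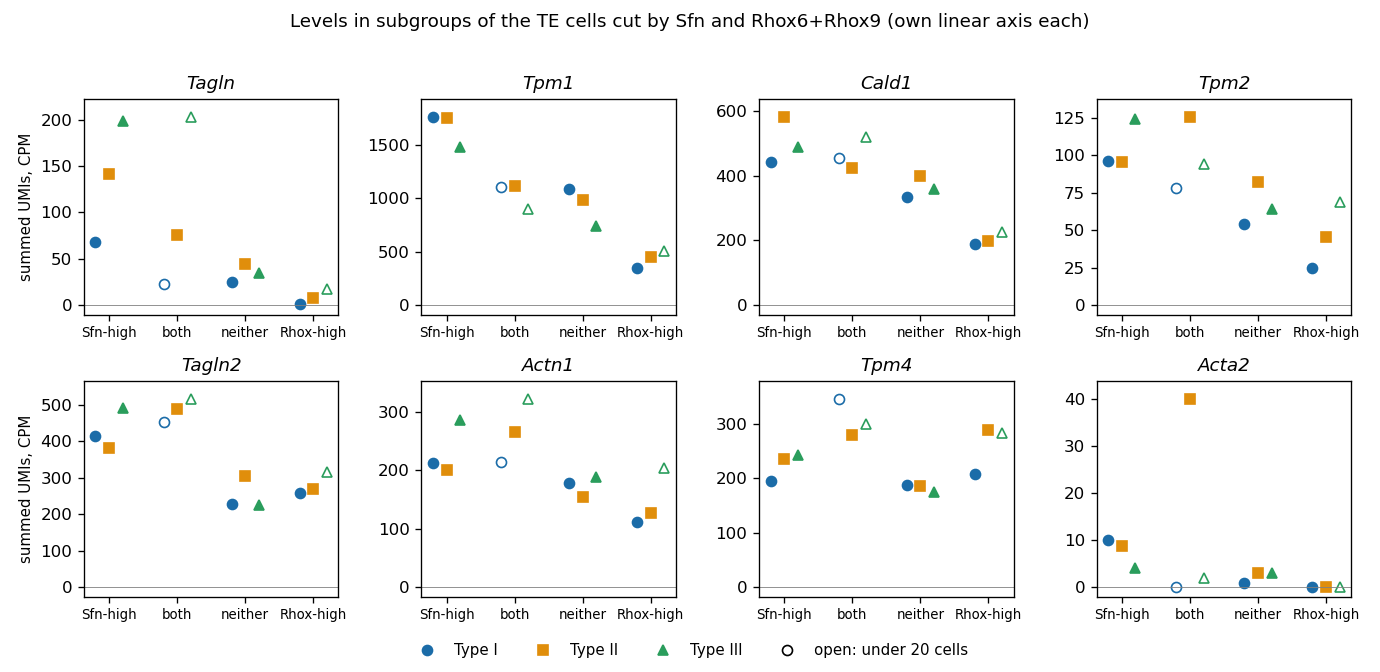
Level in CPM (vertical axis, linear, its own range in each panel) of 8 of the genes in TE cells high in Sfn alone, high in both, in neither, or in Rhox6 and Rhox9 alone (horizontal axis), 1 point per library, open where a subgroup has under 20 cells. Tagln, Tpm1 and Cald1 are lowest in the Rhox-high cells of each library, whereas Tpm4 is not.

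Between the types, Tagln was the 1 gene of the 10 called in TE. It had 122 CPM (exact 95% Poisson interval 114 to 131) in the TE cells of Type III, against 29.7 CPM (26.5 to 33.2) in those of Type I, a log2 ratio of 1.87. It had 72.2 CPM (67.6 to 77.0) in those of Type II, a log2 ratio of 1.15 over Type I. Over all genes 0.424% were called higher and 0.0978% lower in Type III over Type I, and 0.0652% higher and 0.0217% lower in Type II over Type I, at a 2-fold ratio with at least 20 CPM on 1 side. In Type III over Type II 0 of the 10 were called, where 0.196% of all genes were called higher and 0.152% lower. With 1 library per type these differences have no replicate check.

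The Type III level of Tagln rested on barcodes that other libraries also held. Its 47 TE cells with such barcodes had a median of 95750 UMIs and 134 CPM of Tagln, and its 25 other TE cells had a median of 26629 UMIs and 37.3 CPM. Rhox6 had 128 CPM in the cells with such barcodes and 681 CPM in the others. Leaving such barcodes out of every library gave log2 ratios of 0.35 for Type III over Type I and -0.83 for Type III over Type II, and 1.18 for Type II over Type I. Tpm2 was then at -1.41 in Type III over Type II, from 20 UMIs in the 25 Type III cells. Comparisons of types otherwise asked for at least 50 cells on both sides, so this is not counted as a call. For the 6 genes called higher in TE over epiblast, the excess did not rest on them. In the other cells of Type III, Tagln had 37.3 CPM in TE and 1.14 CPM in the epiblast. Tpm1 had 691 CPM in TE and 125 CPM in the epiblast there. Tpm2 went the other way in those cells, at 27.6 CPM in TE (20 UMIs) and 35.8 CPM in the epiblast (63 UMIs). Acta2, Myl9 and Cnn1 had at most 2 UMIs in either state.

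Tpm1 had log2 ratios of -0.02 for Type III over Type I, -0.11 for Type III over Type II and 0.09 for Type II over Type I in TE. Without shared barcodes it was lower in Type III, with 691 CPM there, against 1158 CPM for Type II cells and 1063 CPM for Type I cells, and the log2 ratios were -0.62 over Type I and -0.74 over Type II. Over Type I, Cald1 was at 0.28 with shared barcodes and -0.48 without them, and Tpm2 at 0.66 with them and -0.95 without. Within the epiblast 0 of the 10 genes were called between any 2 types, where 0.0217% of all genes were called higher and 0.0435% lower in Type III over Type I, and 0.109% higher and 0.0652% lower in Type III over Type II. In early PrE 0 of the 10 were called in Type II over Type I either, where 0.0543% of all genes were called higher and 0.0109% lower. Tpm1 was lower in the Type III epiblast, at 120.2 CPM (112 to 128), than in the Type I epiblast, at 170.4 CPM (165 to 176), a log2 ratio of -0.49.

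Inside the epiblast gate the primed cells (Otx2, Pou3f1 and Fgf5 together at 100 CPM or more and Zfp42, Klf2 and Nanog under it) were compared with the naive cells (the reverse). Only Type II had at least 20 cells of each, 25 primed and 317 naive. Tpm1 had 463 CPM in the primed cells and 130.01 CPM in the naive cells, Cald1 had 163 CPM and 59.7 CPM, and Tagln had 8.72 CPM and 1.04 CPM in the same order. These are log2 ratios of 1.79, 1.38 and 1.18. In Type I, with 12 primed cells, they were 1.24, 0.67 and -0.18, so Tagln did not keep its direction. Type III had 1 primed cell, with 0 UMIs of Tpm1, 4 of Cald1 and 0 of Tagln. Over all genes 1.64% passed 2-fold upward and 1.58% downward in that comparison, which rests on 1 library. Tagln2 was at 92.4 CPM in primed cells and 96.2 CPM in naive cells.

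Barcodes that met no gate had Tpm1 and Cald1 levels above the epiblast. Both genes, and no other of the 7, were at least 2-fold higher in Types I and II, where 1.47% of all genes were higher and 1.21% lower in both libraries. In Type I alone 2.64% were higher and 1.76% lower, and in Type II alone 1.84% were higher and 1.35% lower.

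Around the keratin limit of the TE gate, cells just inside (800 to 960 CPM) and just outside (640 to 800 CPM) were few. Tpm1 had 769, 566 and 1735 CPM in the 17, 18 and 3 cells just inside, and 562, 780.3 and 569 CPM in the 25, 30 and 2 cells just outside. The values inside and outside overlapped.

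Other genes of the actin cytoskeleton were read from 6 lists of 79 genes, of which 69 were in the set of 9200. In TE over epiblast 19 of the 69 were called higher, 0 lower and 50 neither, where 5.96% of all genes were called higher and 1.35% lower. With TMM factors 11 were called higher and 0 lower, where 3.32% of all genes were called higher and 2.48% lower. With DESeq2 size factors the counts were 10 and 0, where 2.98% of all genes were called higher and 2.29% lower. Without those factors, visceral endoderm over epiblast gave 22 of the 69 higher and 2 lower, where 13.7% of all genes were called higher and 4.55% lower. Early PrE over epiblast gave 16 higher and 0 lower, where 10.6% of all genes were called higher and 3.10% lower. TE over visceral endoderm gave 10 higher and 6 lower, where 4.51% of all genes were called higher and 7.20% lower. Calls over the epiblast were thus not particular to TE. The lists were drawn up with earlier results of these data known.

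The myosin list gave 3 of 7 higher in TE over epiblast, where 5.96% of all genes were called higher and 1.35% lower. Myh10, the heavy chain of nonmuscle myosin IIB, had 161 ± 11.3 CPM in TE, 26.0 ± 0.625 CPM in visceral endoderm and 34.6 ± 3.995 CPM in the epiblast (mean ± SD, n = 3 libraries). Myh9, the heavy chain of myosin IIA, had 205 ± 32.1 CPM in TE, 191 ± 20.6 CPM in visceral endoderm and 54.7 ± 9.59 CPM in the epiblast. Like Tpm1 and Cald1, Myh10 was called in TE over both visceral endoderm and epiblast, and Myh9 over the epiblast alone. Ppp1r12a, the targeting subunit of myosin phosphatase, was also called, at a mean log2 ratio of 1.17, and the call was lost with TMM factors.

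The list of paralogs gave 1 of 6 higher in TE over epiblast, where 5.96% of all genes were called higher and 1.35% lower. Cnn2, a nonmuscle calponin, had 133 ± 35.9 CPM in TE, 17.8 ± 2.25 CPM in visceral endoderm and 32.8 ± 4.65 CPM in the epiblast, and its call over epiblast was lost with TMM factors. Cnn3, the acidic calponin, was called in TE over visceral endoderm, at a mean log2 ratio of 1.40 ± 0.14. Among 3 actin isoforms Acta1, the skeletal muscle isoform, was called higher in TE over epiblast, with 22.8 ± 24.8 CPM in TE and 0.610 ± 0.178 CPM in the epiblast, and its SD in TE exceeded its mean. It averaged under 5 CPM in visceral endoderm and early PrE, so it passed the minimum through TE alone.

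The crosslinkers gave 2 of 14 higher in TE over epiblast, where 5.96% of all genes were called higher and 1.35% lower. Over visceral endoderm they gave 5 higher and 5 lower, where 4.51% of all genes were called higher and 7.20% lower. Flnc, the filamin of striated muscle, had 40.8 ± 7.58 CPM in TE, 7.07 ± 1.44 CPM in visceral endoderm and 1.39 ± 0.243 CPM in the epiblast. Plec, which encodes the cytolinker plectin, had 60.2 ± 11.9 CPM in TE, 18.1 ± 4.72 CPM in visceral endoderm and 15.4 ± 2.18 CPM in the epiblast.

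Adhesion genes gave 9 of 16 higher in TE over epiblast, where 5.96% of all genes were called higher and 1.35% lower. They gave 0 higher and 1 lower in TE over visceral endoderm, where 4.51% of all genes were called higher and 7.20% lower. Visceral endoderm over epiblast also gave 9 of 16 higher, where 13.7% of all genes were called higher and 4.55% lower. Lpp, a zyxin family protein of focal adhesions, had 81.4 ± 7.14 CPM in TE, 72.0 ± 7.04 CPM in visceral endoderm and 11.97 ± 1.13 CPM in the epiblast. Ilk and Parva, which encode partners in an integrin-linked complex, had mean log2 ratios of 1.64 ± 0.06 and 2.26 ± 0.32 over epiblast and -0.16 ± 0.13 and 0.19 ± 0.49 over visceral endoderm.

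Filament turnover genes gave 3 of 23 higher in TE over epiblast, where 5.96% of all genes were called higher and 1.35% lower. The same list gave 6 higher and 1 lower in visceral endoderm over epiblast, where 13.7% of all genes were called higher and 4.55% lower. It gave 4 higher and 0 lower in early PrE over epiblast, where 10.6% of all genes were called higher and 3.10% lower. Tmsb4x, which encodes the actin monomer binder thymosin beta 4, had 654 ± 162 CPM in TE, 174 ± 26.2 CPM in visceral endoderm and 124 ± 13.5 CPM in the epiblast. Gsn, which encodes the severing protein gelsolin, had 69.3 ± 35.1 CPM in TE, 68.0 ± 6.68 CPM in visceral endoderm and 2.92 ± 0.670 CPM in the epiblast.

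**Figure D5:**
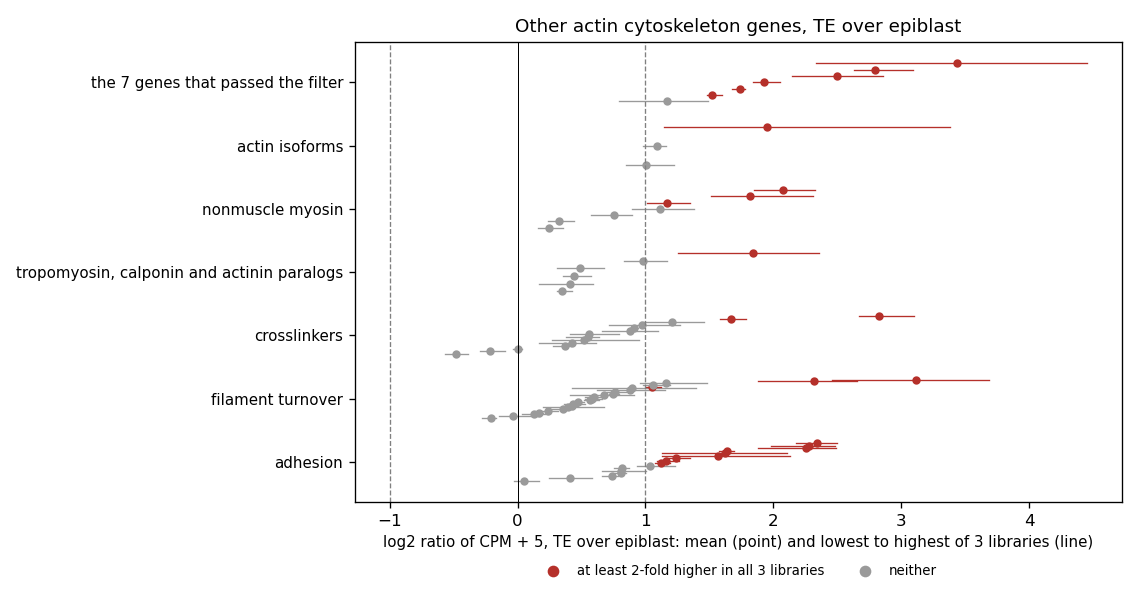
Mean log2 ratio of CPM + 5 for TE over epiblast (horizontal axis; lines run from the lowest to the highest library, n = 3) of the 7 genes that passed the minimum and of 69 other actin cytoskeleton genes, by list (vertical axis); red marks genes at least 2-fold higher in all 3 libraries. Of the 69 genes 19 are red and 0 were called lower.

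The genes whose levels over the 12 state sums were most like each of the 7 were found by Pearson correlation of log2(CPM + 5), centred within library, among 5005 candidates with a mean of at least 20 CPM. For Tpm1 they were Cldnd1, Ier5 and Myh10, at r of 0.99 each. For Cald1 they were Afdn, Plec and Cul4b, and for Tagln Cyth2, Otud5 and Pak4. For Tagln2 they were App, Pcgf5 and Cited2, for Tpm4 Ahnak, Zfp800 and Usp24, and for Actn1 Cers2, Ahctf1 and Txnl1. For Tpm2 they were Nufip1, Fam133b and Mcph1. Among the 7 genes themselves, Tpm1 had r of 0.98 with Cald1 and 0.95 with Tagln, Tagln2 had r of 0.98 with Actn1 and 0.96 with Tpm4, and Tpm2 had r of 0.02 with Tagln2. The 12 sums share 3 libraries and 4 states, so they are not independent points.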

How the data were processed

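The authors deposited 1 table of UMI counts per library, with genes in rows and cell barcodes in columns; per the file headers these came from Cell Ranger 6.0.1, and the build was mm10 per the submitters' processing notes. How barcodes were called as cells and whether strand was used are not given in the sources used here. Total counts were 90126648, 106445641 and 25443474 UMIs in Types I, II and III. Counts were summed over the cells of a state in a library and scaled to CPM, and log2(CPM + 5) was compared within libraries. States were cut from measured expression, so no gene's p-value is printed, and edgeR's adjusted p serves only as a further call rule. The 10 genes, the lists and the rules were chosen with earlier results of these data known. The genes named are the 10, up to 4 per list with the largest TE over epiblast ratio among those called in any comparison, the 3 closest by correlation, the gate genes and up to 3 per marker list; the remaining names are those that a count or a lost call rests on, chosen after their values were seen. A further list of actin-related genes and 1 gene of another list are not reported here. No doublet caller was run; leaving out the deepest 5% of barcodes and cells in more than 1 gate stood in for it. Each type has 1 library, so the spread over libraries includes any difference between types. Alternatives covered scaling (TMM from edgeR 4.0.16, size factors from DESeq2 1.42.0), pseudocounts, abundance, depth and mitochondrial limits, gate limits, each library left out and, as a further call rule, edgeR's quasi-likelihood fit with library as a block. Leaving out shared barcodes was added after seeing the data. The scripts were tested on simulated data.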

Additional observations from a re-analysis of the deposited data

Results flagged for a closer look

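Barcodes that met no gate were outside every comparison of the states, and in them Tpm1 and Cald1 were above the epiblast. Tpm1 had 589.8, 640.3 and 558.7 CPM in the no-gate barcodes (Types I, II and III in that order), against 170.4, 179 and 120.2 CPM in the epiblast. Cald1 had 186, 162 and 194 CPM in the no-gate barcodes, against 71.8, 70.8 and 52.2 CPM in the epiblast. Every no-gate value of both genes lay above every epiblast value. The no-gate barcodes numbered 132, 193 and 15, so Type III was under the 20 cells required for a ratio. In Types I and II the log2 ratios were 1.76 and 1.81 for Tpm1 and 1.32 and 1.14 for Cald1, where 1.47% of all genes were at least 2-fold higher in both libraries and 1.21% lower.

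Within them, 30 barcodes of Type I and 60 of Type II had at least 100 CPM of the primitive streak genes T, Fgf8 and Mesp1 together. Tpm1 had 767 and 901.5 CPM there, against 542 and 507 CPM in the other 102 and 133 no-gate barcodes. Acta2 had 4.03 and 23.0 CPM in the streak-gene barcodes, against 2.80 and 4.49 CPM in the others. In Type II the Acta2 level of the streak-gene barcodes was above that of the TE gate, at 6.94 CPM, and in Type I it was 4.03 CPM, from 5 UMIs, against 2.76 CPM in TE. What these barcodes are was not tested.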

How the results depend on the processing

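The 6 calls in TE over epiblast were kept under each scaling, pseudocount, abundance, depth, mitochondrial and gate setting, with 6 to 7 called when 1 library was left out (Tpm2 joined without Type I). Leaving out 1 library gave 4 in TE over visceral endoderm, 3 to 4 in visceral endoderm over epiblast, 2 in early PrE over epiblast and 0 in visceral endoderm over early PrE. Because a call needs 2-fold in every library used, leaving 1 out can add calls but not remove them. Dropping the abundance minimum cannot remove a call either. In visceral endoderm over epiblast, where 3 were called, DESeq2 size factors left 1, cells of a single gate 1 and unshared barcodes 1. In early PrE over epiblast, where 2 were called, cells of a single gate left 0 and unshared barcodes 1; with DESeq2 size factors or doubled state limits the count stayed at 2, but Tagln2 lost its call and Tpm2 was called lower. In TE over visceral endoderm unshared barcodes left 2 of 4, and 1 of these, Tagln, had passed the minimum through TE alone. By edgeR's quasi-likelihood rule 7, 6, 5 and 4 of the 7 genes were called in TE over visceral endoderm, visceral endoderm over epiblast, early PrE over epiblast and visceral endoderm over early PrE; that rule asks for no fold and called 13.5% to 40.7% of all genes in each direction of those comparisons. The cause of the other changes was not tested. Of 277 alternative values of 21 gene results past 2-fold, 218 moved by less than a set spread, 59 by more and 0 reversed. These 21 include Acta2 in the TE subgroups, which was below the minimum. The spread was the SD over libraries, or for ratios between types the 95% counting error. Changing the abundance limit could not move a state ratio. Leaving out 1 library could neither move a called state ratio past its SD nor reverse it, so neither setting tests these ratios. State ratios were taken within each library, and the edgeR rule had library as a block. Between types no paired analysis was possible because each type has 1 library and the labels give no shared replicate numbers. Visceral endoderm of Type III, with 19 cells, is the least precise state.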
